A study of Ambystoma mexicanum and Ambystoma andersoni and Ambystoma maculatum with 18 samples.

Results

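In larvae of the spotted salamander, Ambystoma maculatum, 60 assembled RNA features were abundant in the forelimb tip at amputation and strongly reduced in it 24 h later. The lowest 0 h library held at least 8 times the level of the highest 24 h library for each of them. They were chosen by these measured levels from the 474849 features in the table of the species, which is 1 of 3 tables with 2262193 features in all. A member had a mean of at least 50 counts per 1000000 (CPM) at 0 h, that 8-fold gap, a mean below 1000 CPM over all 6 libraries and more than 3 counts in sum at 24 h. CPM here means expected counts divided by the library's counts outside its most abundant feature, per 1000000. Because the rule used the 24 h against 0 h contrast in all 6 libraries, the levels and folds of the members are given below as a description, with no test.

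The study took forelimb tips from larvae of 3 species, A. mexicanum, A. andersoni and A. maculatum, after amputation at mid-zeugopod (the zeugopod is the lower arm). A piece of 1 mm was taken from the end of the limb at once (0 h) or 24 h later, and the labels give no other treatment, strain or genotype. Each library pooled tissue of 5 larvae, and there were 3 libraries for each species and time. The labels do not say more of how the pools were formed, so the spread between libraries is that between these pools, and in part it may be technical. The samples are whole tissue, so fewer cells of a type and less RNA per cell cannot be told apart.

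A salamander larva's lower arm holds skin, cartilage, muscle, nerve, vessels and connective tissue. After amputation, epidermal cells move over the cut and close it, blood and immune cells gather beneath, and the tissue next to the cut is then broken down and remodelled before a blastema of progenitor cells grows out. RNA of mature tissue can thus be lost from the stump while RNA of wound and immune cells appears. The feature IDs of this table carry no gene names, the deposited tables do not pair them with any, and 0 of the 474849 IDs were found in the RefSeq gene table of the axolotl assembly UKY_AmexF1_1. No member can therefore be assigned to any of these tissues here, the tissue label could not be checked against marker genes, and only 2 IDs are printed.

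The 6 A. maculatum libraries held 8037090 to 14826773 expected counts. Their most abundant feature took 20.7% to 24.9% of the counts at 0 h and 44.4% to 64.5% at 24 h. Outside it, 4469984 counts were left in the first 24 h library, 4627633 in the second and 7079066 in the third, against 9304141 to 11752817 at 0 h. In a single library, 3 counts correspond to 0.671, 0.648 and 0.424 CPM in these 24 h libraries.

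The members made up a small and even part of the RNA at 0 h. Leaving the most abundant feature aside, their share of counts was 1.64% in the first 0 h library (95% exact Clopper-Pearson interval 1.63 to 1.64), 1.73% (1.73 to 1.74) in the second and 1.70% (1.70 to 1.71) in the third. At 24 h the share was 0.0156% (0.0144 to 0.0167) in the first library, 0.104% (0.101 to 0.107) in the second and 0.150% (0.148 to 0.153) in the third. These intervals treat each count as an independent draw and leave out the spread between libraries. The reads carry no molecular identifiers and several can stem from 1 molecule, so the intervals may be too narrow even for counting error. The gap between the times is set by the rule. The 3 shares at 0 h lay close together, and those at 24 h were further apart relative to their size. The mean share at 0 h was 1.69% ± 0.0502 (SD, n = 3). Its value 24 h later was 0.0899% ± 0.0685 (SD, n = 3). In counts, the 60 features drew 152121, 203663 and 179570 at 0 h and 695, 4798 and 10646 at 24 h.

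**Figure D1:**
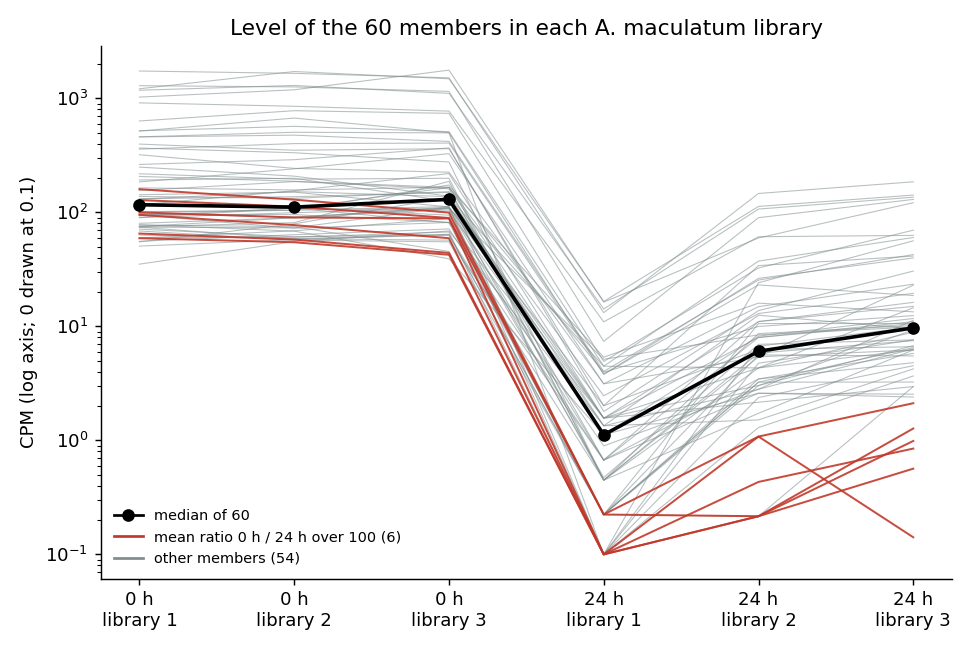
Level of each of the 60 members (CPM, log axis, 0 drawn at 0.1) in the 6 A. maculatum libraries; each line is 1 feature, red for the 6 whose mean was more than 100 times higher at 0 h, grey for the others, and black points join the medians. The medians lie between 111 and 130 CPM in the 0 h libraries and at 1.12, 6.05 and 9.70 CPM in the 24 h libraries.

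A few members carried most of this share. Mean levels at 0 h ranged from 52.2 to 1637 CPM, with a median of 124 and quartiles of 85.3 and 274. In level, 23 members lay between 50 and 100 CPM at 0 h, 19 between 100 and 200, 9 between 200 and 500, and 9 at 500 or more. The 8 highest held at least as much of the summed 0 h level as the other 52 together, and the 6 highest held 45.6% of it.

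The highest member, Mac_TR100270_c0_g2, stood at 1739, 1658 and 1515 CPM in the 0 h libraries and at 13.2, 147 and 185 CPM in the 24 h libraries. Its level at 24 h was far below its own 0 h level in all 3 libraries, as the rule asked. It was lowest by far in the first. The mean went from 1637 ± 114 to 115 ± 90.3 CPM (SD over 3 libraries each), a 14.2-fold difference, with an edgeR log2 fold change of -3.71 (SE 0.75). The second highest held 1214, 1721 and 1486 CPM at 0 h and 16.6, 113 and 142 CPM at 24 h. The third highest held 1027, 1189 and 1769 CPM at 0 h, and 16.3, 59.6 and 122 CPM at 24 h. The libraries of the 2 times did not overlap in either, and in both the first 24 h library was again well below the other 2.

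The fourth highest held 1293, 1261 and 1152 CPM at 0 h against 7.38, 89.9 and 130 CPM at 24 h. The fifth held 1179, 1299 and 1107 CPM at 0 h against 14.2, 107 and 136 CPM. The sixth held 913, 853 and 773 CPM at 0 h against 11.0, 61.2 and 62.9 CPM. Among these 6 the mean was 13.9 to 20.2 times lower at 24 h, a narrow range beside that of all 60. The first, the second and the fifth also had the 3 highest means at 24 h, at 115, 90.4 and 85.7 CPM.

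Over all 60 the ratio of the mean at 0 h to the mean at 24 h ran from 12.7 to 218, with a median of 20.2 and quartiles of 17.8 and 31.9. Expressed as log2 of 24 h over 0 h, the median was -4.34. Over the 27360 features tested the median of the same measure was -0.15, and over the 1880 with at least 50 CPM at 0 h it was -0.23. The fold was 8 to 16 in 9 members, 16 to 20 in 18, 20 to 32 in 18, 32 to 100 in 9 and over 100 in 6. Most folds thus lay between 16 and 32, with a thin tail of far deeper losses.

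The 6 members of that tail had means of 52.2 to 130 CPM at 0 h, beside a median of 124 CPM over all 60. The value of 52.2 CPM was the lowest of the 60. These 6 kept 5 to 21 counts each over the 3 libraries at 24 h. The deepest, Mac_TR78204_c4_g1, stood at 100, 90.3 and 88.6 CPM at 0 h and at 0, 0.432 and 0.848 CPM at 24 h. Its 931, 1061 and 933.87 expected counts at 0 h had become 0, 2 and 6, so the first 24 h library was at 0 and the second below 3 counts. The mean went from 93.0 ± 6.20 to 0.427 ± 0.424 CPM (SD over 3 libraries each), a 218-fold ratio, with an edgeR log2 fold change of -7.49 (SE 0.47). This SE is derived from the F statistic of the fit. With 8 counts in sum at 24 h it may be too small, and no precision is read from it.

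The next feature in order of fold held 65.2, 57.8 and 44.1 CPM at 0 h and 0, 0.216 and 0.565 CPM at 24 h, a ratio of means of 214. The third held 128, 112 and 89.3 CPM at 0 h and 0.224, 0.216 and 1.27 CPM at 24 h, a ratio of 193. The fourth held 95.2, 77.3 and 59.4 CPM at 0 h and 0, 1.08 and 0.141 CPM at 24 h, a ratio of 190. In this one the second 24 h library, with 5 counts, was above the third, with 1.

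The fifth held 59.3, 54.7 and 42.5 CPM at 0 h and 0, 0.216 and 0.989 CPM at 24 h, a ratio of 130. The sixth held 160, 129 and 99.6 CPM at 0 h and 0.224, 1.08 and 2.12 CPM at 24 h, a ratio of 114. Summed over the 6, there were 2 counts in the first 24 h library, 15 in the second and 42 in the third. Ratios of this size thus rest on few counts at 24 h, while the levels at 0 h rest on 448 to 1521 counts per library.

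These 6 also shared an order among the 0 h libraries that the rule did not ask for: the third 0 h library was the lowest in 6 of 6. That library was the lowest in 26 of all 60 members. The same held for 30.7% of the 1820 features of at least 50 CPM at 0 h that were not members. A non-member just under 50 CPM, with a 207-fold difference of means, had the third 0 h library highest, at 41.1, 50.6 and 57.8 CPM. Features under 50 CPM at 0 h were not counted for this order, so it is described for the members only. Of the 15 members with a fold of 32 or more, 13 were lower in the third 0 h library than in the first, against 18 of the other 45. Among the 1820 features with at least 50 CPM at 0 h that were not members, 35.8% were lower in the third. This comparison depends on the scaling: with edgeR's TMM factors 14 of those 15 members, 43 of all 60 and 61.6% of the 1820 were lower in the third. Across the 60 members, Spearman's rho between the log2 ratio of the third to the first 0 h library and the log2 fold was 0.36. Both measures use the same 0 h libraries, so it is given as a description only.

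Levels at 0 h otherwise agreed well among libraries. The coefficient of variation over the 3 libraries at 0 h had a median of 12.97% among members and 12.6% among the 1820 others. The steadiest member held 164, 157 and 166 CPM at 0 h, and the next 63.3, 59.1 and 62.9 CPM, with coefficients of 2.87% and 3.79%. The least steady held 74.9, 81.3 and 187 CPM at 0 h, and the next 55.1, 79.3 and 135 CPM, with coefficients of 55.1% and 45.8%. In both of these the third 0 h library was the high one.

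At 24 h the picture was different. The coefficient of variation over the 3 libraries at 24 h had a median of 81.3% among members against 26.1% among the 1820 others. Members held a median of 100 counts each, summed over the 3 libraries at 24 h. The groups were not matched for level at 24 h, and the part of low counts in this contrast was not tested. The first 24 h library was the lowest of the 3 for 57 of the 60 members and the highest for 0. The third was the highest for 53 and the second for 7. Among the 1820 others the first was the lowest in 32.3%, and the third was the highest in 62.7%. With TMM scaling the first was the lowest for 60 of 60 members, and the third was the highest for only 27. Among members the low position of the first library thus held under both scalings, and the order of the other 2 did not. The share among the 1820 others was not counted with TMM. Without TMM, the first was also the lowest in 174 of 176 non-members whose mean was at least 8 times higher at 0 h.

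Taken as a percentage of the mean 0 h level, the first 24 h library kept a median of 0.681% of each member (range 0 to 5.19%), the second 4.80% (0.197 to 9.93%) and the third 7.85% (0.183 to 11.99%). The rule itself caps this percentage at 12.5. In the first library 38 members were below 1% and 9 had 0 counts. In the second 6 were below 1%, in the third 2, and no member was at 0 in either. Where the first library was above 0, which held for 51 members, the third exceeded it by a median of 9.56-fold (range 1.39 to 47.4). Across members, Spearman's rho was 0.66 between the percentages left in the second and the third library and 0.38 between those in the first and the third, a description of 60 features that share the same libraries.

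**Figure D2:**
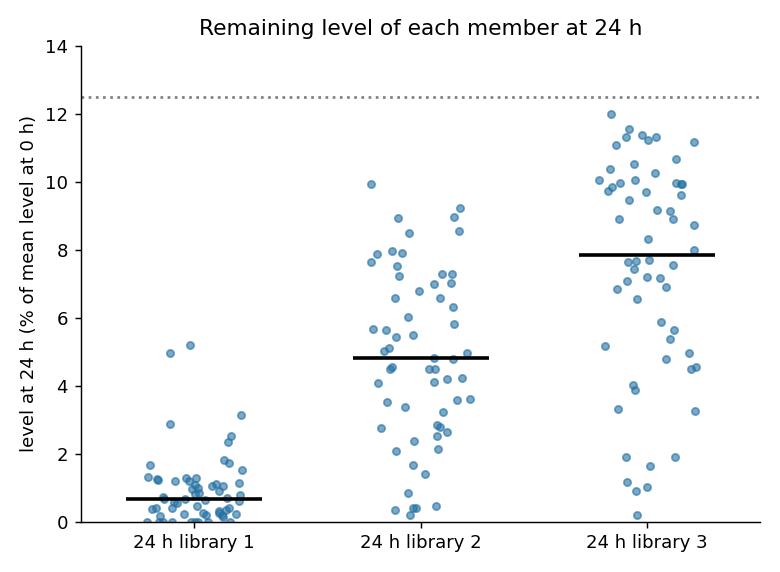
Level of each member in each 24 h library as a percentage of its mean level at 0 h; each point is 1 of the 60 members, black bars are medians (0.681%, 4.80% and 7.85%), and the dotted line is the 12.5% that the membership rule allows. Points of the first library crowd near 0 and those of the third spread up to 11.99%.

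The low first library was not a property of the members alone, nor of all RNA in that library. The log2 ratio of the first to the third 24 h library had a median of -3.26 among the 51 members above 0 and -3.33 among 169 other features whose mean was at least 8 times higher at 0 h. It was -1.98 among 133 features with means 4 to 8 times higher at 0 h, and -0.48 among 206 with means 2 to 4 times higher. Among 1155 features whose means lay within a factor of 2 it was -0.07, and among 174 features of at least 50 CPM at 24 h that were 4 or more times higher at 24 h it was -0.18. The gap between these 2 libraries was thus graded with the size of the loss. The 24 h means that set these groups include both libraries, so the grading is given as a description only. The first 24 h library also had the fewest counts and the smallest share of the most abundant feature among those at 24 h, and the part of these in the result was not tested.

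**Figure D3:**
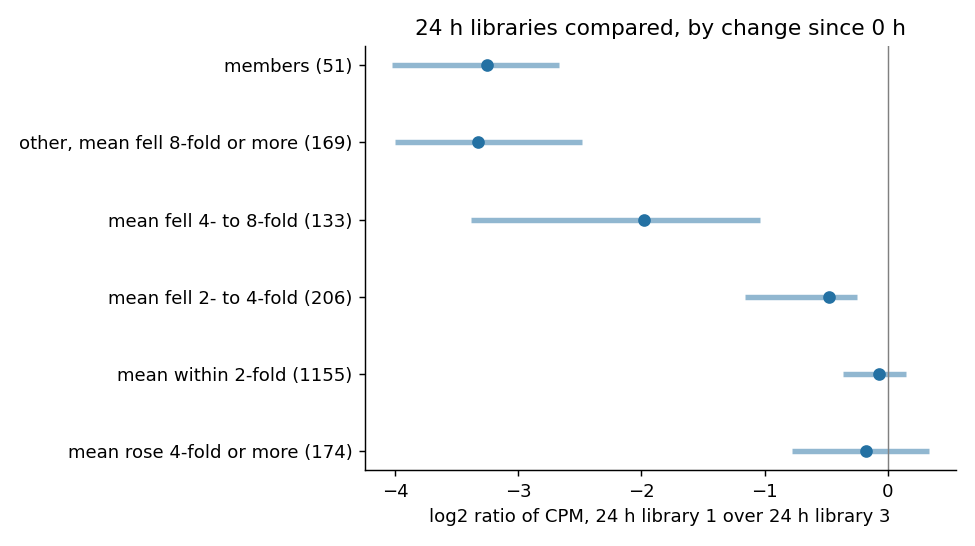
Log2 ratio of CPM in the first 24 h library to that in the third, for features grouped by how their mean changed from 0 h to 24 h; points are medians, bars run between the quartiles, and the number of features above 0 in all 3 libraries at 24 h is in brackets. The median lies at -3.26 for members and at -0.07 for features within a factor of 2.

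In the scaling used here, the third 24 h library kept most and bore most on which features became members. With TMM scaling that library was the highest at 24 h for only 27 of the 60 members. Of the 1880 features with at least 50 CPM at 0 h, 3.19% met the whole rule. A ratio of means of at least 8 was met by 236, and 153 of these failed only the 8-fold gap between single libraries. Their highest 24 h library was the third in 134 and the second in 19. Over all 1820 features at this level that were not members, the third was the highest in 62.7%. Applied without the third 24 h library, the rule chose 169 features, of which 54 were among the 60. Without any 1 of the other 5 libraries it chose 59 to 89, of which 58 to 60 were among the 60.

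A library left out in this way was not used to choose those features, and its own values are described beside them. In all 6 cases each chosen feature kept the left-out library on its own side of all libraries of the other time. Such an order was common: of the 1880 features with at least 50 CPM at 0 h, 777 had every 24 h library below every 0 h library. The chosen features already had an 8-fold gap over the remaining libraries, which was not asked of the 777. Nothing is therefore read from the kept order. Of the 169 features chosen without the third 24 h library, 158 showed at least a 4-fold gap to it and 54 an 8-fold gap, with a median of 6.91. Of the 89 chosen without the first 0 h library, 89 showed a 4-fold gap and 61 an 8-fold gap. Of the 59 chosen without the first 24 h library, 59 showed an 8-fold gap, with a median of 132. No share by chance was computed for these counts.

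The bounds cut through a continuous range. The 3 members nearest the 8-fold bound had gaps of 8.01, 8.04 and 8.07, and the 3 features just short of it, which met every other criterion, had 7.89, 7.75 and 7.72. In 22 members the gap was 8 to 9, in 18 it was 9 to 12, in 12 it was 12 to 24 and in 8 it was larger. At the lower bound of level, members with 52.2, 53.1 and 55.7 CPM at 0 h stood beside non-members with 49.8, 48.5 and 48.4 CPM. The first of those non-members fell from 41.1, 50.6 and 57.8 CPM at 0 h to 0.224, 0.216 and 0.283 CPM at 24 h, a 207-fold difference of means. At the upper limit, 3 features met every criterion but had a mean of 1000 CPM or more over the 6 libraries, and the lowest of them held a mean of 2669 CPM at 0 h and 155 CPM at 24 h. No feature was left out by the floor of 3 counts at 24 h.

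Among abundant features few losses were of intermediate size. Of 101 features with at least 1000 CPM at 0 h, leaving out the most abundant one, 35 were not lower at 24 h and 30 were lower by less than 2-fold in mean. In this class 0 lay between 2- and 4-fold and 2 between 4- and 8-fold. A further 28 were 8 to 16 times lower and 6 were 16 to 32 times lower, and 5 of these were members. Among the 1879 features of at least 50 CPM the classes ran together, with 206 between 2- and 4-fold, 133 between 4- and 8-fold, 158 between 8- and 16-fold, 63 between 16- and 32-fold and 15 above. All 15 in the last class were members.

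**Figure D4:**
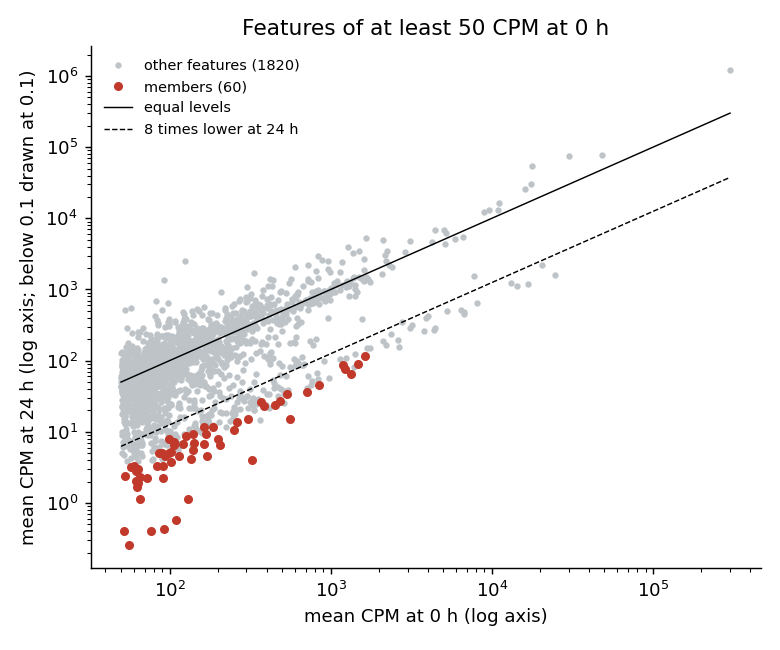
Mean CPM at 24 h against mean CPM at 0 h for the 1880 A. maculatum features with at least 50 CPM at 0 h (both axes log); red points are the 60 members, grey points the other 1820, the solid line marks equal levels and the dashed line levels 8 times lower at 24 h. Most features of at least 1000 CPM at 0 h lie either near the solid line or below the dashed one, with the members along the lower edge.

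The IDs place each feature in a component, a group of assembled sequences that share stretches of sequence and may be forms of 1 gene or related genes. The 60 members came from 58 components, and 38 of these held 90 other features, of which 59 had enough counts to be tested. At 24 h 13 of the 59 had 0 counts in all 3 libraries, from means of 1.59 to 12.4 CPM at 0 h, 16 had a mean above 0 and under 1 CPM, and 30 had 1 CPM or more. Among the 46 above 0 the median log2 of 24 h over 0 h was -3.87 (quartiles -4.41 and -3.35, range -8.17 to 1.68). With the 13 set to a floor of 3 counts over the 24 h libraries, the median of all 59 was -3.96. The end of the range at -8.17 belongs to a feature with a mean of 0.0471 CPM at 24 h, below the 0.1855 CPM of this floor. The mean was at least 8 times lower at 24 h in 40 of the 46, and at this floor in each of the 13, while 2 features were higher at 24 h. In 55 of the 59 the highest 24 h library was below the lowest 0 h library, where 23.4% of all tested features had this order. Features near 0 at 24 h could enter the test only through their 0 h level, which fixed their direction. The share of 8-fold losses over all tested features was not counted. Nothing is therefore read from these folds, nor from the counts of 8-fold losses and of this order.

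**Figure D5:**
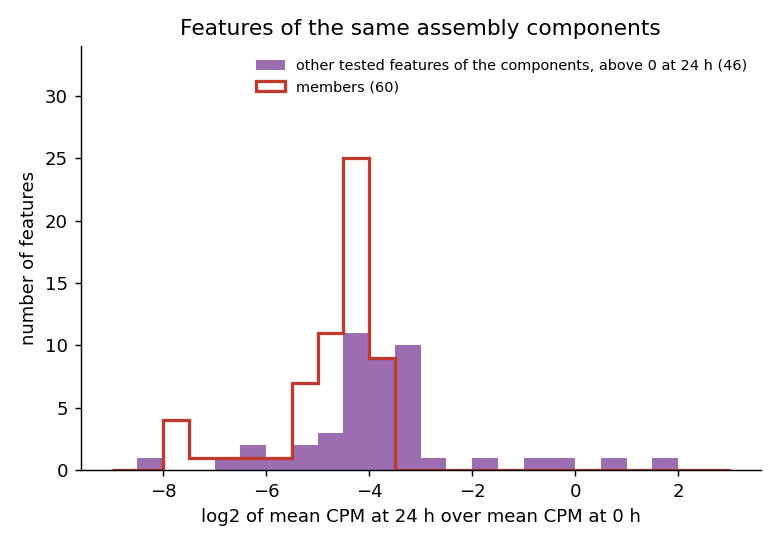
Log2 of mean CPM at 24 h over mean CPM at 0 h for the 60 members (red outline) and for the 46 other tested features of their components with counts at 24 h (purple bars); the vertical axis counts features, and 13 more features at 0 at 24 h are not drawn. The 46 have a median of -3.87 and the members one of -4.34.

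Features of 1 component can trade reads, because an expected count divides a read that matches several features among them. An expected count that is not whole marks such division. In 43 of the 60 members (71.7%) all 6 values were whole within 0.001, a share close to the 72.9% of the 1880 features with at least 50 CPM at 0 h and the 76.7% of all tested features. The median fold was 22.1 among these 43 and 19.8 among the other 17, and 15 of the 17 came from components with another feature. Of all 60 members, 20 had no other feature in their component. Among the 59 other tested features of the members' components 33 (55.9%) were whole throughout, a lower share than those above. The part of divided reads in the members' levels was not tested.

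In 2 components a pair of features were both members. One pair held 460, 504 and 499 CPM and 263, 290 and 368 CPM at 0 h. At 24 h the first of this pair stood at 0, 24.1 and 56.3 CPM and its partner at 1.79, 13.8 and 30.6 CPM. The first of them was the most abundant member with no count in the first 24 h library. The other pair held 207, 188 and 166 CPM and 74.3, 73.2 and 111 CPM at 0 h, and 5.37, 15.99 and 13.4 CPM and 2.01, 6.27 and 6.64 CPM at 24 h. Within each pair the folds were alike, at 18.2 and 19.98 in the one and 16.1 and 17.3 in the other.

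All 60 members passed the filter on low counts of the fit across all features, and all 60 were called lower at 24 h by edgeR's quasi-likelihood test at an adjusted p of 0.05, where 11.8% of all tested features and 30.8% of those with at least 50 CPM at 0 h were called lower. Since the rule used this contrast, nothing is read from that count. The spread that the fit assigned to the members was wider than usual, with a median biological coefficient of variation of 0.442 against 0.295 over all tested features. These groups were not matched for level either.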

How the data were processed

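RNA of A. maculatum forelimb tips was sequenced from libraries made with an Illumina TruSeq kit, with about 50000000 read pairs of 100 bp aimed at per library, per the labels. Per the labels, the authors deposited expected counts from RSEM, 1 value per assembled feature and library, and the submitters' processing notes name the same tool. The sources used here do not name its version, the aligner or the assembler. The number of columns of values left unused was 0. Levels were computed as CPM over the counts outside the most abundant feature. Expected counts were rounded and fitted with edgeR 4.0.16 in R 4.3.3 (filterByExpr with minimum count 10 and total 15, TMM, the older quasi-likelihood method, time as the only term, Benjamini-Hochberg adjustment over 27360 features). Standard errors are the unshrunken log2 fold over the square root of F. They are approximate, above all where counts are few, and the log2 fold changes printed beside them are edgeR's shrunken values. Since the rule used this contrast, no test is read from a fold and its SE. DESeq2 1.42.0, other scalings, bounds and filters, and each library left out were tried as alternatives. The fit was also run on simulated data with the same spread for every feature and folds of at most 8. The members' folds were larger and their spread differed, so nothing is read from that run for them. Depth was 8037090 to 14826773 counts per library. Replicate numbers follow accession order and pair nothing. The members, lists and tests were chosen with earlier results of these data known. Named by ID are the member of highest level at 0 h and that of largest fold. Others were described by their place in orders of level, fold, spread, bounds and shared components.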

Additional observations from a re-analysis of the deposited data

How the results depend on the processing

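No paired analysis was possible because replicate numbers follow accession order only. The number of members moved from 60 to 169 without the third 24 h library, 162 with the most abundant feature kept in the library total, 224 with a ratio bound of 4, 14 with a bound of 16, 114 with a 0 h minimum of 20 CPM, 37 with one of 100 CPM, and 213 with the ratio of means. TMM scaling gave 55, of which 37 were shared with the 60, and DESeq2 size factors 77, of which 54 were shared. Leaving out 1 library gave 59 to 169, and 59 to 89 where that library was not the third at 24 h. The median log2 fold of the 60 ran from -5.15 to -4.30 over the scalings and from -5.20 to -3.94 with 1 library left out. The 8-fold gap of the rule fixed its sign in advance, so only its size is described. The members' share at 0 h was 1.30% of all counts in place of 1.69% of those outside the most abundant feature. At 24 h it was 0.0393% in place of 0.0899%, and it ranged from 0.0596% to 0.127% with 1 library left out, with 0.0596% without the third 24 h library. Features called lower numbered 3221 of 27360 tested, beside 2791 called higher. With library totals alone they numbered 6411 of 27360, beside 752 higher, and the median log2 fold of all features moved from -0.01 to -0.86. With 1 library left out the lowest number was 1923 of 28871, without the second 0 h library. The highest was 4116 of 29369, without the third 24 h library. DESeq2 called 3383 of 27360 lower, and edgeR without the filter on low counts 3759 of 352220. The members called numbered 59 or 60 in each of these fits, with 59 by DESeq2. Since the rule used this contrast, nothing is read from that number. In the other species, leaving out 1 library, an alternative chosen after seeing the data, gave 0 to 4 features meeting the rule. The 24 h depth limits the folds over 100, which rest on 5 to 21 counts each, summed over the 24 h libraries.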

Other observations

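The same rule was applied to the tables of the other 2 species, whose features are not matched to those of A. maculatum. In A. andersoni 0 of 2445 features with at least 50 CPM at 0 h met it, and in A. mexicanum 0 of 2529, against 60 of 1880 in A. maculatum. Without any 1 library the number in A. andersoni was 0 to 2. In A. mexicanum it was 0 to 4, with the 4 found without the third 0 h library. No test of this difference was made, and each table has its own assembly and its own spread between libraries.

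With the times exchanged, so that a feature had to be at least 8 times higher in the lowest 24 h library than in the highest 0 h library, 58 features of A. maculatum met the rule, of 1812 with at least 50 CPM at 24 h. In A. andersoni 11 of 2622 did so and in A. mexicanum 34 of 2625. Without any 1 library the number was 11 to 30 in A. andersoni, where 21 were found without the first 0 h library, 30 without the second and 18 without the second 24 h library. It was 35 to 114 in A. mexicanum, with 114 without the third 0 h library and 57 without the second 24 h library. With all libraries, A. maculatum thus held 60 losses and 58 gains that met the rule. Neither number counts all changes of this size. The exchanged rule also asked for more than 3 counts in sum at 0 h and a mean below 1000 CPM. Features at or near 0 at 0 h are thus not among the 58, and their number is not given here. The balance depends on the scaling: it was 55 and 44 with TMM, 77 and 67 with DESeq2 size factors, and 162 and 18 with the most abundant feature kept in the library total. The gains under these scalings were counted after the data had been seen.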
